A study of Mus musculus with 21 samples.

Results

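A set of 10 genes known as targets of the transcription factor p53 were followed in mouse liver tumours treated with lenvatinib, an antibody against PD-1, or both. The members were the probe sets annotated to 10 listed genes: Cdkn1a, Mdm2, Ccng1, Phlda3, Btg2, Bax, Eda2r, Trp53inp1, Sesn1 and Zmat3. Of these, 9 had a named probe set, 1 each, among the 22206 probe sets tested, which stood for 19505 named genes. Bax had no match among the named probe sets and was not analysed here. Expression was measured in 21 tumours on Clariom S mouse arrays, 1 tumour and 1 array per mouse. All tumours grew from Hepa1-6, a single mouse hepatoma line, placed beneath the skin of C57BL/6J mice, all female and aged 5 to 6 weeks. Treatment began when tumours had reached 200 mm3, with mice assigned to arms at random. The combination arm (5 mice) had lenvatinib and anti-PD1, the anti-PD1 arm (5 mice) had the antibody alone, and the lenvatinib arm (5 mice) had lenvatinib alone. The placebo arm (6 mice) had the drug vehicle and a polyclonal IgG. Lenvatinib, an inhibitor of VEGF and FGF receptors, was given by gavage at 10 mg/kg each day. Anti-PD1, clone J43, blocks an inhibitory receptor of T cells and was injected into the peritoneum 5 times, at 10 mg/kg and 3 days apart. Mice were killed on day 13, at 2 h after the last lenvatinib and 1 day after the last antibody, and 30 mg of each tumour gave the RNA.

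p53 is held at low levels in resting cells by Mdm2, a ubiquitin ligase that marks it for destruction. DNA damage, oncogene activity or ribosome stress frees p53, which then binds paired half-sites near its target genes and raises their transcription. Its targets stop the cell cycle, start cell death, adjust metabolism, or, as Mdm2 does, switch p53 off again. In liver and hepatoma cells the best known readouts of the pathway are Cdkn1a and Mdm2.

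The sequence before the transcription start is shown for 4 members, since the tumour-to-tumour levels of Cdkn1a, Mdm2, Ccng1 and Eda2r are described below as pairs. Each line holds the 250 bases upstream of an annotated start, 5′ to 3′ along the gene, from RefSeq on build GRCm38.p6. Capitals mark exact matches to the 10-base p53 half-site consensus, which reads the same on both strands. A stretch that misses it at any base stays in lower case. The windows are chr17:29090729-29090978 for Cdkn1a, chr10:117710759-117711008 for Mdm2, chr11:40755287-40755536 for Ccng1 and chrX:97377210-97377459 for Eda2r.
Cdkn1a: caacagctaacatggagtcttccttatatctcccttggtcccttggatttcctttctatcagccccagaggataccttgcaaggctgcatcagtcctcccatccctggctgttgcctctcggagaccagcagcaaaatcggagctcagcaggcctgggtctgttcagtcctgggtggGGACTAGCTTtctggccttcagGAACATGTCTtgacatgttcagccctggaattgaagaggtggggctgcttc
Mdm2: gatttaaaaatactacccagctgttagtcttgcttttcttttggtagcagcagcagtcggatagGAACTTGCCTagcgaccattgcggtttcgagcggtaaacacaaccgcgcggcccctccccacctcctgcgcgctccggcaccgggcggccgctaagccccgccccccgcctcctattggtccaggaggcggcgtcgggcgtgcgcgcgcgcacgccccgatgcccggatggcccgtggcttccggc
Ccng1: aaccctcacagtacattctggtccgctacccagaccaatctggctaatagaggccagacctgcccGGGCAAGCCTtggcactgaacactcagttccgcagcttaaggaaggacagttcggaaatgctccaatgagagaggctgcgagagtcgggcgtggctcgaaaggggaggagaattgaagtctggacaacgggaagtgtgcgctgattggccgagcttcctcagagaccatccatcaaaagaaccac
Eda2r: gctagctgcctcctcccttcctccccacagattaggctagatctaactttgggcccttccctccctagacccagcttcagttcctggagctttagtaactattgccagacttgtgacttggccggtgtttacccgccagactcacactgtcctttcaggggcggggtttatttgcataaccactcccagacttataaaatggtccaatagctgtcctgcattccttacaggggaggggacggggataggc
The Cdkn1a window lies before the more upstream of its 2 annotated starts, which are 2790 bases apart. It held 2 half-sites, beginning 73 and 51 bases before the start with a 12-base spacer. This pair was the only full site, defined as 2 exact half-sites at most 13 bases apart, in the members' windows. The letters directly after the second half-site, tgacatgttc, miss the consensus at their first base only and were not counted. Which of these stretches p53 binds was not tested. The window before the other Cdkn1a start held no half-site.
The Mdm2 window held 1 half-site, beginning 186 bases before the start, and the Ccng1 window held 1, beginning 185 bases before it. Eda2r had none in these 250 bases.
Windows were in the table for 8 of the 10 listed genes, 10 windows in all, and 5 of the 10 held a half-site. The other 2 with a match were Bax, 201 bases before its start, and 1 of the 2 Sesn1 windows, 173 bases before its start. Phlda3 and Btg2 had no match, and Trp53inp1 and Zmat3 had no window in the table. Over all 32851 windows of this length, 7.13% held a half-site and 0.0639% a full site. Of 45 windows of the other p53 targets listed below, 6 held a half-site and 0 a full site. A half-site was in 2 of 16 windows of mitosis genes and in 0 of 21 windows of relatives of the members. A match in these windows is a description of the letters and not a measured binding site. Bases outside the windows were not searched, so an absent match says nothing of sites elsewhere in a gene.

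Values are log2 signals, so a difference of 1 is a doubling of signal, and levels of different genes are not set against each other. Array medians lay between 5.32 and 5.49. The median over 5222 negative-control rows was 4.10, and 64.5% of them had a mean below that of Eda2r, as did 64.5% for Zmat3 and 73.0% for Trp53inp1. These 3 members were therefore the least clear of background, while at least 91.3% of the controls lay below each of the others. On 6 arrays the spiked hybridization controls averaged 11.2 to 11.6, against 10.1 to 10.7 on the other 15. Those 6 arrays with bright controls were combination mouse 1, anti-PD1 mouse 1, lenvatinib mice 1 and 2, and placebo mice 4 and 6. Each arm therefore held 1 or 2 of them. Their values were also less spread: interquartile ranges of the probe sets tested were 2.41 to 2.82 on these 6 and 3.00 to 3.25 on the other 15. A difference between arms is given ± its standard error with a 95% interval from limma, and it passed at an adjusted p under 0.05 over all 22206 probe sets.

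Cell cycle arrest was represented by Cdkn1a, which encodes the CDK inhibitor p21, and by Btg2, an antiproliferative cofactor of mRNA deadenylation. Cdkn1a stood at 9.06, 10.33, 10.11, 10.11 and 10.73 in combination tumours. It stood at 8.25, 8.19, 10.44, 9.90 and 10.27 in anti-PD1 tumours and at 8.77, 8.75, 10.60, 10.81 and 10.74 in lenvatinib tumours. Placebo tumours ran between 8.03 and 10.54, with a median of 9.99. The 4 arms overlapped over most of their range, and each arm held both low and high tumours.
Arm means of Cdkn1a were 10.07 ± 0.62 in the combination, 9.41 ± 1.10 with anti-PD1, 9.93 ± 1.08 with lenvatinib (SD, n = 5 each) and 9.60 ± 1.08 with placebo (SD, n = 6). The low values followed the arrays more closely than the arms. Cdkn1a was between 8.03 and 9.06 on the 6 arrays with bright controls, with a mean of 8.57, against a mean of 10.21 on the other 15. Of those 15, anti-PD1 mouse 2 at 8.19 was the only tumour below 9.06, and the next lowest was placebo mouse 1 at 9.58. Whether the array set these levels was not tested.
Btg2 stood at 7.08, 6.96, 7.46, 7.91 and 7.70 in combination tumours and at 6.67, 7.20, 6.78, 6.94 and 6.47 in anti-PD1 tumours. It stood at 7.70, 7.25, 6.65, 6.76 and 6.50 in lenvatinib tumours, and ran between 6.42 and 7.31 with placebo, with a median of 7.06. The combination held the highest of the 21 values and 2 of the highest 3, and its lowest 2 lay within the range of every other arm. Arm means were 7.42 ± 0.40, 6.81 ± 0.28, 6.97 ± 0.49 (SD, n = 5 each) and 6.996 ± 0.361 (SD, n = 6) in the combination, anti-PD1, lenvatinib and placebo arms.

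Feedback on p53 was represented by Mdm2 and by Ccng1, which encodes cyclin G1, a partner of the phosphatase PP2A that acts on Mdm2. Mdm2 stood at 7.39, 7.73, 7.85, 7.57 and 7.62 in combination tumours. It stood at 6.02, 6.94, 7.66, 7.53 and 7.77 with anti-PD1 and at 7.26, 7.27, 7.85, 7.99 and 8.10 with lenvatinib. Placebo tumours ran between 6.66 and 7.46, with a median of 7.05.
Tumours above every placebo tumour numbered 4 of 5 in the combination, 3 of 5 with anti-PD1 and 3 of 5 with lenvatinib. Arm means were 7.63 ± 0.17 in the combination, 7.19 ± 0.72 with anti-PD1, 7.69 ± 0.40 with lenvatinib (SD, n = 5 each) and 7.11 ± 0.31 with placebo (SD, n = 6).
Ccng1 stood at 8.83, 9.75, 8.97, 8.81 and 9.06 in combination tumours, at 6.41, 8.89, 8.84, 8.80 and 9.10 with anti-PD1, and at 8.47, 8.54, 8.87, 9.19 and 8.70 with lenvatinib. With placebo it ran between 8.32 and 9.21, with a median of 8.88. All arms overlapped apart from anti-PD1 mouse 1, which had bright controls; the next lowest of the 21 tumours was placebo mouse 4 at 8.32. Arm means were 9.08 ± 0.39, 8.41 ± 1.12, 8.76 ± 0.29 (SD, n = 5 each) and 8.85 ± 0.31 (SD, n = 6) in the combination, anti-PD1, lenvatinib and placebo arms.

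Cell death was represented by Phlda3, Eda2r and Trp53inp1. Phlda3 encodes a membrane protein that competes with Akt for phosphoinositides and so restrains Akt. It stood at 8.03, 8.64, 8.83, 7.76 and 7.98 in combination tumours, at 7.87, 9.74, 8.73, 8.69 and 8.76 with anti-PD1, and at 8.09, 8.20, 8.63, 8.67 and 8.23 with lenvatinib. Placebo tumours ran between 8.29 and 9.10, with a median of 8.57. Below every placebo tumour lay 3 of 5 in the combination, 1 of 5 with anti-PD1 and 3 of 5 with lenvatinib.
Arm means of Phlda3 were 8.25 ± 0.46 in the combination, 8.76 ± 0.66 with anti-PD1, 8.36 ± 0.27 with lenvatinib (SD, n = 5 each) and 8.65 ± 0.37 with placebo (SD, n = 6).
Eda2r, a TNF receptor family member on the X chromosome that binds ectodysplasin A2, averaged 4.64 ± 0.27 in the combination, 4.94 ± 0.62 with anti-PD1, 4.73 ± 0.63 with lenvatinib (SD, n = 5 each) and 4.65 ± 0.41 with placebo (SD, n = 6). Its highest tumours were anti-PD1 mice 3 and 5 at 5.64 and 5.51 and lenvatinib mouse 3 at 5.52. Its lowest were lenvatinib mouse 2 at 3.97 and placebo mouse 4 at 3.99, so the arms overlapped throughout.
Trp53inp1, a p53-induced nuclear protein of apoptosis and autophagy, stood at 5.63, 4.98, 5.80, 6.06 and 5.79 in combination tumours, at 2.87, 5.26, 4.88, 6.48 and 5.36 with anti-PD1, and at 5.86, 4.28, 5.38, 6.15 and 5.73 with lenvatinib. With placebo it ran between 4.03 and 5.46, with a median of 4.93. Above every placebo tumour lay 4 of 5 in the combination, 1 of 5 with anti-PD1 and 3 of 5 with lenvatinib. Arm means were 5.65 ± 0.41, 4.97 ± 1.32, 5.48 ± 0.72 (SD, n = 5 each) and 4.87 ± 0.52 (SD, n = 6) in the combination, anti-PD1, lenvatinib and placebo arms. The anti-PD1 value of 2.87, in mouse 1, and the lowest placebo value, 4.03 in mouse 5, were below the negative-control median. So were the Eda2r values of 3.97 and 3.99.

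Stress handling was represented by Sesn1, whose sestrin restrains the growth kinase mTORC1. It stood at 5.67, 7.55, 7.08, 8.08 and 7.62 in combination tumours, at 6.69, 7.82, 6.04, 7.30 and 5.95 with anti-PD1, and at 5.65, 6.20, 5.97, 7.001 and 6.65 with lenvatinib. The placebo range was 5.18 to 7.60, with a median of 6.77. In the combination 4 of 5 lay above every lenvatinib tumour, and the fifth, mouse 1, was near the lowest lenvatinib value. Arm means were 7.20 ± 0.93, 6.76 ± 0.81, 6.30 ± 0.54 (SD, n = 5 each) and 6.64 ± 0.85 (SD, n = 6) in the combination, anti-PD1, lenvatinib and placebo arms.
Zmat3, a zinc finger protein that binds RNA, stood at 4.09, 4.27, 4.48, 4.88 and 4.66 in combination tumours, at 4.88, 4.27, 5.14, 4.45 and 5.77 with anti-PD1, and at 5.99, 4.82, 5.04, 4.87 and 4.52 with lenvatinib. Placebo tumours ran between 4.06 and 5.21, with a median of 4.53. The highest values were lenvatinib mouse 1 and anti-PD1 mouse 5. The lowest, placebo mouse 4 at 4.06 and combination mouse 1 at 4.09, were below the negative-control median. Arm means were 4.48 ± 0.31, 4.90 ± 0.59, 5.05 ± 0.56 (SD, n = 5 each) and 4.57 ± 0.43 (SD, n = 6) in the combination, anti-PD1, lenvatinib and placebo arms.

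**Figure D1:**
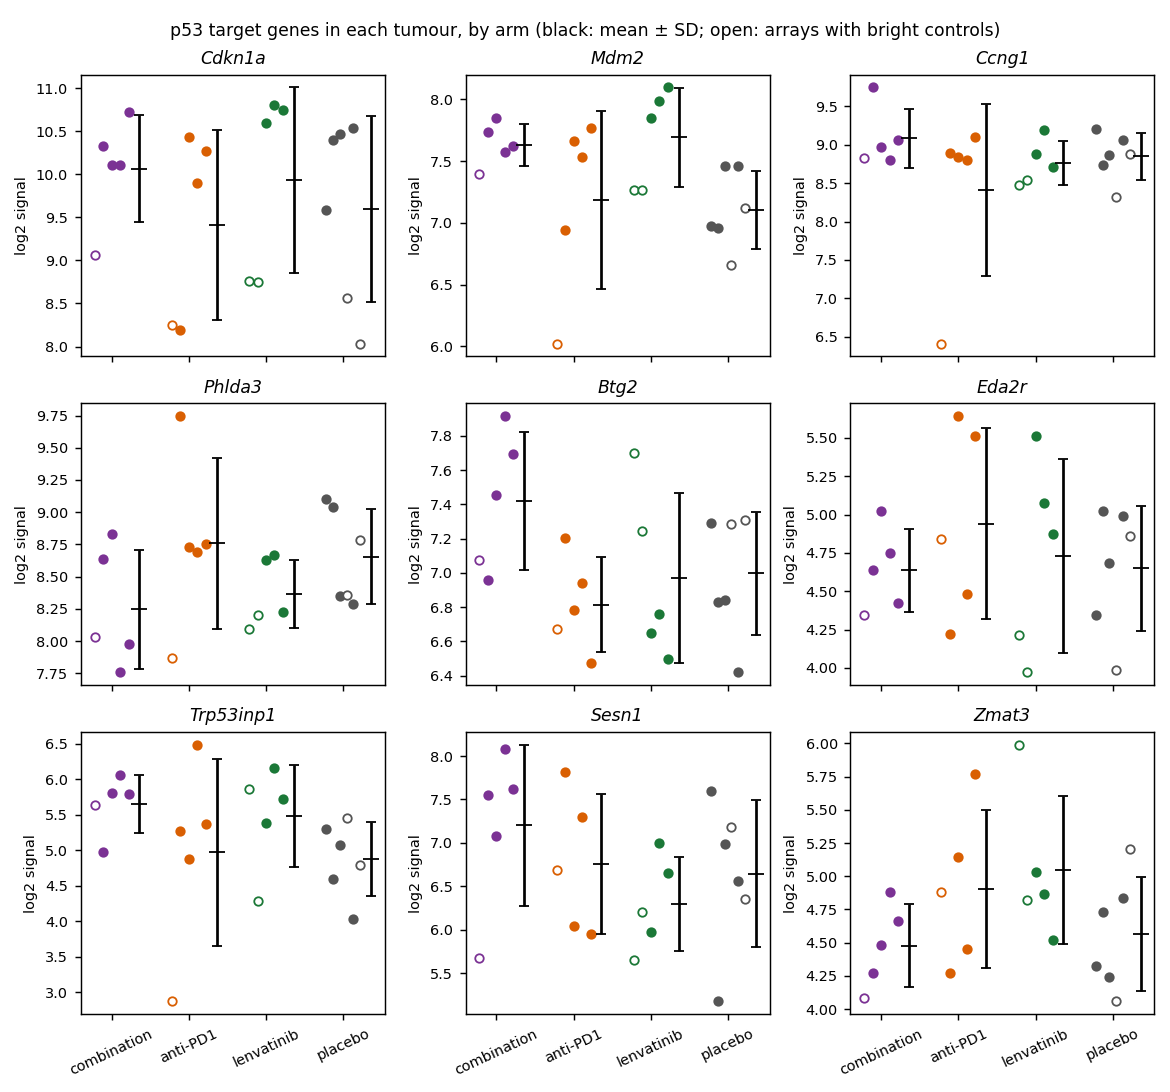
Log2 signal of the 9 measured p53 target genes in each tumour, by arm from left to right (combination, anti-PD1, lenvatinib, placebo), with 1 point per mouse and the mean ± SD in black beside it. Open points are the 6 arrays with bright hybridization controls, on which Cdkn1a lay between 8.03 and 9.06; Ccng1 in anti-PD1 mouse 1 lay alone at 6.41.

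Whether any member differed among the 4 arms was asked first with limma's F test. No member passed after Benjamini-Hochberg adjustment, and of the 22206 probe sets 0 passed (0%). At an unadjusted p under 0.05, 0 of 9 members passed, against 5.69% of all probe sets. Mdm2 had the smallest p of the members, 0.0811 in limma's F test (adjusted p = 0.920).

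The lenvatinib arm against placebo asked what the kinase inhibitor did alone. Mdm2 was 0.59 ± 0.26 higher (interval 0.04 to 1.13), a ratio of 1.502, and did not pass in limma (adjusted p = 0.693). Of the members 0 of 9 passed, as of all probe sets (0%). At an unadjusted p under 0.05 in limma Mdm2 alone passed, 1 of 9 members against 6.97% of all. Trp53inp1, with a difference of 0.61 ± 0.45 (-0.33 to 1.55), and Zmat3, with 0.48 ± 0.28 (-0.11 to 1.07), came next by p in limma (adjusted p = 0.759 and 0.720). Without lenvatinib mouse 1, at 5.99, the Zmat3 difference was 0.25. Differences of the other 6 ran from -0.35 for Sesn1 to 0.34 for Cdkn1a. The Cdkn1a interval was wide, -0.81 to 1.49. Of the 9 members 5 had a difference above 0, against 49.1% of all probe sets, with a median of 0.08 against -0.01.

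The anti-PD1 arm against placebo asked what the antibody did alone. Ccng1 had a difference of -0.44 ± 0.35 (-1.17 to 0.29), Zmat3 of 0.34 ± 0.28 (-0.25 to 0.93) and Eda2r of 0.29 ± 0.29 (-0.32 to 0.90), each with an adjusted p of 1.00 in limma. Single mice carried much of each: the Ccng1 difference was 0.06 without anti-PD1 mouse 1, that of Zmat3 was 0.12 without anti-PD1 mouse 5, and that of Eda2r was 0.12 without anti-PD1 mouse 3. No member passed, and neither did any of the 22206 probe sets (0%). At an unadjusted p under 0.05 in limma the counts were 0 of 9 members and 4.07% of all. Of the members 6 of 9 lay above 0, against 49.6% of all, with a median of 0.10.

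The combination against placebo asked what both agents did together. Mdm2 was 0.53 ± 0.26 higher (-0.02 to 1.07), Btg2 0.42 ± 0.24 (-0.07 to 0.91) and Trp53inp1 0.78 ± 0.45 (-0.16 to 1.72), each with an adjusted p of 1.00 in limma. No member and no other probe set passed (0%). At an unadjusted p under 0.05 in limma 0 of 9 members passed, against 2.31% of all. Cdkn1a had a difference of 0.47 ± 0.55 and Phlda3 of -0.41 ± 0.27. Of the members 6 of 9 lay above 0, against 49.3% of all, with a median of 0.42 against -0.0036.

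**Figure D2:**
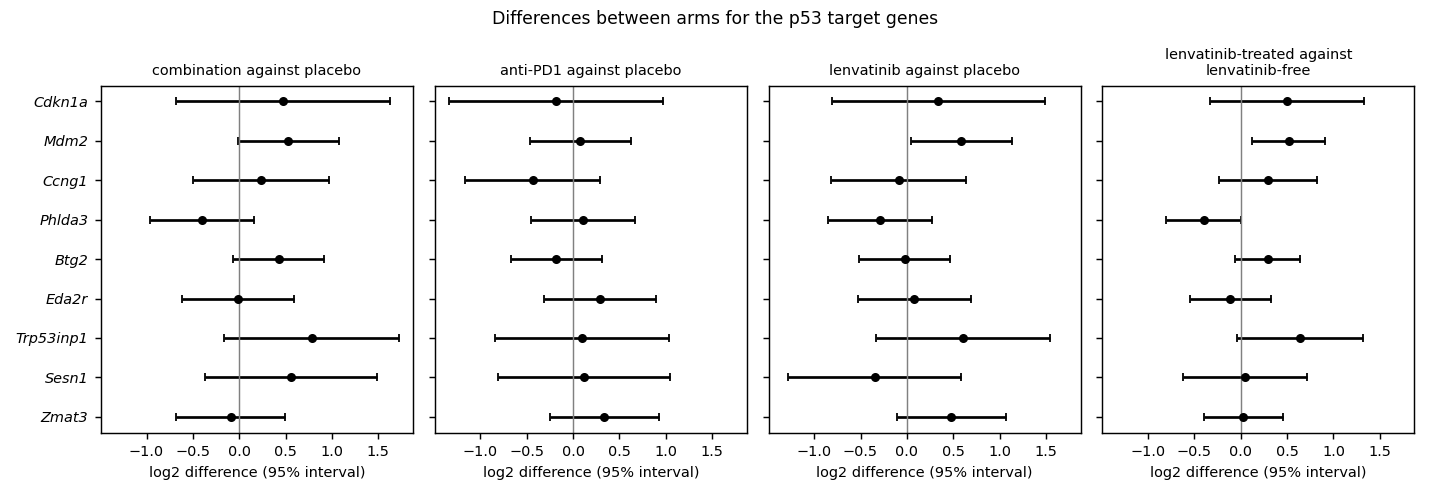
Log2 difference of each measured p53 target gene, with its 95% interval from limma, for the combination, anti-PD1 and lenvatinib arms against placebo and for all lenvatinib-treated against all lenvatinib-free mice. The Mdm2 interval excluded 0 for lenvatinib against placebo (0.04 to 1.13) and for the pooled comparison (0.12 to 0.91), and no member passed after adjustment over all probe sets.

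The combination was then set against each agent. Against lenvatinib, Sesn1 was 0.91 ± 0.47 higher (-0.06 to 1.87), Zmat3 differed by -0.57 ± 0.29 (-1.18 to 0.04) and Btg2 by 0.45 ± 0.25 (-0.06 to 0.96), with adjusted p of 0.788, 0.788 and 0.799 in limma. Of the members 0 of 9 passed (0% of all probe sets). At an unadjusted p under 0.05 in limma 0 members passed, against 6.4% of all, and 5 of 9 lay above 0, against 48.8%. With array weights, which count noisier arrays less, the Btg2 difference was 0.71 and passed in limma (adjusted p = 0.0447), beside 707 probe sets in all. The Btg2 difference was 0.87 on the 15 arrays without bright controls and -0.40 on the 6 with them, where 1 combination mouse stands against 2 lenvatinib mice. On the same sets those of Sesn1 were 1.04 and -0.25, and those of Zmat3 were -0.23 and -1.32. Without lenvatinib mouse 1 the Zmat3 difference was -0.33.
Against anti-PD1, Btg2 was 0.61 ± 0.25 higher (0.09 to 1.12), a ratio of 1.52, and did not pass in limma (adjusted p = 0.481). It was the 1 of 9 members with an unadjusted p under 0.05 in limma, against 7.64% of all probe sets, and 0 members passed after adjustment (0% of all). Of the members 6 of 9 lay above 0, against 48.1% of all, with a median of 0.45. On the 15 arrays the Btg2 difference was 0.66. The 6 with bright controls hold only 1 combination and 1 anti-PD1 mouse, at 7.08 and 6.67. Ccng1 differed by 0.67 ± 0.37 (-0.09 to 1.43) and Phlda3 by -0.51 ± 0.28 (-1.10 to 0.08), with adjusted p of 0.769 and 0.774 in limma. Without anti-PD1 mouse 1 the Ccng1 difference was 0.17, and without anti-PD1 mouse 2 that of Phlda3 was -0.26.
Lenvatinib against anti-PD1 gave 0.51 ± 0.27 for Mdm2, -0.39 ± 0.28 for Phlda3 and 0.51 ± 0.47 for Trp53inp1, each with an adjusted p of 0.955 or above in limma. Without anti-PD1 mouse 1 these stood at 0.22 for Mdm2, -0.62 for Phlda3 and -0.02 for Trp53inp1. Without anti-PD1 mouse 2 the Phlda3 difference was -0.15, and within the 6 arrays with bright controls, 2 lenvatinib mice against 1 anti-PD1 mouse, it was 0.28. No member passed (0% of all probe sets), and 0 of 9 had an unadjusted p under 0.05 in limma, against 4.59% of all. Here 6 of 9 lay above 0, against 51.5%.

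The factorial design also gave 3 contrasts that use all 21 mice. In the mice given lenvatinib with or without the antibody, Mdm2 averaged 7.66 ± 0.29 and ran between 7.26 and 8.10 (SD, n = 10). In the lenvatinib-free mice it averaged 7.14 ± 0.51 and ran between 6.02 and 7.77 (SD, n = 11). The difference was 0.52 ± 0.19 (0.12 to 0.91), a ratio of 1.43, and did not pass in limma (adjusted p = 0.829). Mdm2 was the 1 of 9 members with an unadjusted p under 0.05 in limma, against 5.89% of all probe sets, and 0% of all passed after adjustment. Of the members 7 of 9 lay above 0, against 51.3% of all, with a median of 0.29. The Mdm2 difference was 0.49 on the 15 arrays, 0.87 on the 6 with bright controls and 0.54 with that split as a block. It was 0.37 without anti-PD1 mouse 1, which is among those 6. Phlda3 differed by -0.40 ± 0.20 (-0.81 to 0.01) and Trp53inp1 by 0.64 ± 0.33 (-0.04 to 1.32), with adjusted p of 0.855 and 0.868 in limma. Without anti-PD1 mouse 1 the Trp53inp1 difference was 0.38.
In mice given the antibody against those without it, no member passed (0% of all), and 0 of 9 had an unadjusted p under 0.05 in limma, against 1.52% of all. Here 5 of 9 lay above 0, against 48.8%. Sesn1 differed by 0.51 ± 0.32 (-0.16 to 1.18), Btg2 by 0.13 ± 0.17 and Zmat3 by -0.12 ± 0.20, each with an adjusted p of 1.00 in limma. The Btg2 difference was 0.07 without combination mouse 4, and that of Zmat3 was 0.0018 without lenvatinib mouse 1.
The interaction asks whether the log2 effects of the agents add up. Zmat3 gave -0.91 ± 0.41 (-1.76 to -0.06), the only unadjusted p under 0.05 in limma among the 9 members, against 9.02% of all probe sets. It did not pass in limma (adjusted p = 0.508), nor did any probe set (0%), and 5 of 9 members lay above 0, against 48.9% of all. Zmat3 was nearly level in the combination and placebo arms and higher on average with either agent alone, and its interaction was -0.61 on the 15 arrays. Btg2 gave 0.63 ± 0.34 (-0.08 to 1.34) and Ccng1 0.76 ± 0.51 (-0.29 to 1.82), with adjusted p of 0.621 and 0.731 in limma. Without anti-PD1 mouse 1 the Ccng1 interaction was 0.26.

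Other genes of the pathway were read from lists that were also chosen with earlier results of these data known. Of 35 other p53 targets 33 were measured, and 0 passed in any of the 9 contrasts. Their median difference lay between -0.20, for the interaction, and 0.13, for lenvatinib against placebo. Plk3, a stress-responsive polo-like kinase, averaged 6.21 ± 0.12, 5.57 ± 0.42, 6.20 ± 0.45 (SD, n = 5 each) and 5.503 ± 0.888 (SD, n = 6) in the combination, anti-PD1, lenvatinib and placebo arms. Its difference was 0.67 ± 0.24 in lenvatinib-treated against lenvatinib-free mice and did not pass in limma (adjusted p = 0.829). Ddb2, a sensor of UV damage in nucleotide excision repair, differed by 0.54 ± 0.20 in the combination against lenvatinib and did not pass in limma (adjusted p = 0.780). Cyfip2 averaged 7.47 ± 1.29 in the combination against 5.59 ± 1.29 with anti-PD1 (SD, n = 5 each), a difference of 1.89 ± 0.64 that did not pass in limma (adjusted p = 0.304). Steap3, a ferrireductase, differed by -1.10 ± 0.44 in lenvatinib against placebo (adjusted p = 0.693 in limma).
Of 18 genes listed as p53 and its regulators 17 were measured, and 0 passed in any contrast. Trp53 itself, which encodes p53, had no match among the named probe sets either and was not analysed here. Mdm4, a relative of Mdm2 that inhibits p53, averaged 6.29 ± 0.49 in the combination, 6.34 ± 0.58 with anti-PD1, 6.05 ± 0.32 with lenvatinib (SD, n = 5 each) and 5.52 ± 0.42 with placebo (SD, n = 6). Its differences from placebo were 0.77, 0.82 and 0.53, each ± 0.27, in that order of arms, with adjusted p of 1.00, 0.961 and 0.693 in limma. These 3 share the placebo mice.
Of 20 relatives of the members 19 were measured, and 0 passed in any contrast. Mcl1, a survival protein of the Bcl-2 family to which Bax belongs, averaged 7.42 ± 0.32 in the combination against 6.77 ± 0.34 with anti-PD1 (SD, n = 5 each). The difference of 0.65 ± 0.18 did not pass in limma (adjusted p = 0.173).
Mitosis genes, many of which p53 lowers through p21, were measured for 20 of 22, and 0 passed in any contrast. In lenvatinib against placebo 20 of 20 lay above 0, against 49.1% of all probe sets, and 8 had an unadjusted p under 0.05, against 6.97%, with a median of 1.02 against -0.01. In anti-PD1 against placebo 20 of 20, and in the combination against placebo 19 of 20, lay above 0, with medians of 0.45 and 0.21 and 0 at an unadjusted p under 0.05. These 3 comparisons share the placebo mice. Ube2c averaged 8.96 ± 0.57 with lenvatinib (SD, n = 5) against 7.37 ± 1.42 with placebo (SD, n = 6), a difference of 1.596 ± 0.608 (adjusted p = 0.693 in limma). On the 15 arrays without bright controls it was 0.64.
Markers of cell types in lenvatinib against placebo also lay to 1 side of 0 in several lists, again with 0 passing in limma after adjustment. Hepatocyte lineage genes lay above 0 in 15 of 15, against 49.1% of all probe sets, with a median of 0.81. An unadjusted p under 0.05 was found for 6 of them, against 6.97% of all. Below 0 lay 10 of 10 adipocyte genes (4 unadjusted, median -1.73), 10 of 10 fibroblast genes (3, -0.61), 10 of 10 macrophage genes (2, -0.69), 10 of 10 T cell genes (0, -0.50) and 13 of 13 skeletal muscle genes (0, -0.83). In the combination against placebo 10 of 10 T cell genes (3 unadjusted, median 0.68) and 8 of 8 B cell genes (5, 1.22) lay above 0. Below 0 there lay 10 of 10 adipocyte genes (0, -1.12) and 13 of 13 skeletal muscle genes (0, -1.13). Mostly below 0 were keratinocyte genes, 8 of 9 (3, -0.55), and fibroblast genes, 9 of 10 (0, -0.23). Of all probe sets 49.3% lay above 0, and 2.31% had an unadjusted p under 0.05. The mean deviation of the B cell genes from their averages was 1.55 and 3.64 in combination mice 3 and 4. It was -0.35, -0.11 and -0.04 in combination mice 1, 2 and 5, and ran from -0.50 to -0.0040 with placebo. In anti-PD1 against placebo 10 of 10 macrophage genes (8 unadjusted, median -1.03) and 10 of 10 T cell genes (7, -0.90) lay below 0. So did 13 of 13 skeletal muscle genes (0, -1.48), while 9 of 9 endothelial genes (0, 0.41) lay above 0. Shares over all probe sets in that contrast were 49.6% above 0 and 4.07% with an unadjusted p under 0.05. The part of tissue make-up in the members' differences was not tested, apart from the muscle score given below.

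Variation from tumour to tumour within an arm was described next, after each arm's mean was removed. The 9 members gave 36 pairs, with permutation p-values adjusted over the 36. Of these 27 had a Pearson r above 0. By Pearson r 2 passed, and by Spearman's rho 6 passed. On the 15 arrays without bright controls 14 of 36 had an r above 0 and 0 passed, so both readings are given for each pair. Values on the 6 arrays with bright controls are without removal of arm means, since some arms hold a single mouse there. They therefore mix differences between arms with those within arms. With the mean signal of the hybridization controls, r was -0.84 for Cdkn1a, -0.76 for Mdm2 and -0.65 for Ccng1 over 21 mice. It was -0.50 for Eda2r, -0.39 for Sesn1, -0.33 for Trp53inp1, -0.32 for Phlda3, 0.13 for Zmat3 and 0.37 for Btg2. In bulk tissue, fewer cells of a type and less RNA per cell cannot be told apart.
Cdkn1a and Mdm2 had r = 0.76 (permutation p = 0.00056, adjusted 0.0202) and Spearman's rho = 0.80 (permutation p = 0.00079, adjusted 0.0284) over 21 mice. The r was 0.86 without the 2 mice farthest from the Cdkn1a median. It was 0.79 on the 15 arrays (permutation p = 0.0308, adjusted 0.191) and 0.56 on the 6 with bright controls (permutation p = 0.259). With the hybridization signal also removed it was 0.35. The sign was the same in both sets of arrays, though arm means were removed only on the 15. Without anti-PD1 mouse 5 the r was 0.75 and no longer passed (adjusted permutation p = 0.0529).
Mdm2 and Ccng1 had r = 0.80 (permutation p = 0.00169, adjusted 0.0304) and rho = 0.64 (permutation p = 0.00297, adjusted 0.0356). This relation rested on anti-PD1 mouse 1, without which r was 0.51 (adjusted permutation p = 0.0866). It also missed the threshold without placebo mouse 4, lenvatinib mouse 2 or anti-PD1 mouse 5, with Mdm2 and Ccng1 at an r of 0.78, 0.80 and 0.77. On the 15 arrays r was 0.10, and on the 6 with bright controls, of which anti-PD1 mouse 1 is 1, it was 0.92.
Cdkn1a and Eda2r had r = 0.66 and rho = 0.66 (permutation p = 0.00773 and 0.00756, adjusted 0.0928 and 0.0480). The r was 0.75 without the 2 farthest mice, 0.65 on the 15 arrays and -0.70 on the 6. Ccng1 and Phlda3 had r = 0.64 and rho = 0.60 (permutation p = 0.0285 and 0.00581, adjusted 0.128 and 0.0480), with an r of 0.49 without the 2 farthest mice, 0.31 on the 15 and 0.59 on the 6. Mdm2 and Eda2r, named after their values were seen because they passed by rho, had r = 0.58 and rho = 0.67 (permutation p = 0.0280 and 0.00800, adjusted 0.128 and 0.0480), with an r of 0.75 without the 2 farthest mice, 0.55 on the 15 and -0.40 on the 6.
The pairs lowest in r were both with Btg2. Btg2 and Eda2r had r = -0.57 and rho = -0.51 (permutation p = 0.0141 and 0.0282, adjusted 0.0951 and 0.127), with -0.49 without the 2 farthest mice, -0.51 on the 15 arrays and -0.48 on the 6. Cdkn1a and Btg2 had r = -0.56 and rho = -0.65 (permutation p = 0.0149 and 0.00243, adjusted 0.0951 and 0.0356), with -0.48 without the 2 farthest mice, -0.55 on the 15 and 0.25 on the 6.

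**Figure D3:**
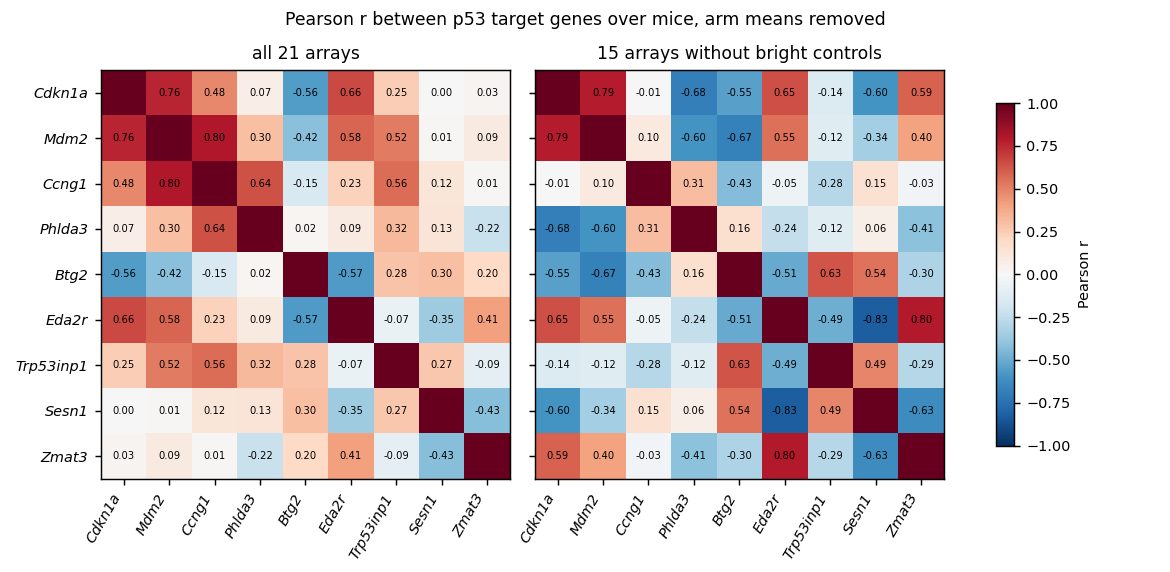
Pearson r for each pair of measured p53 target genes over mice after removal of arm means, on all 21 arrays (left) and on the 15 arrays without bright hybridization controls (right). Cdkn1a with Mdm2 stood at 0.76 and 0.79, while Mdm2 with Ccng1 stood at 0.80 and 0.10.

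Members were also set against list scores, each the mean deviation of a list's genes from their averages over all mice, giving 27 relations with 3 lists. The labelled origin was checked on its lineage markers: 15 of 16 hepatocyte lineage genes were measured. They were unequal in level. Alb, which encodes albumin, averaged 11.37 over the 21 tumours and Trf, transferrin, 11.03, and Afp, alpha-fetoprotein, ran between 3.75 and 11.94. The means of these 3 lay above at least 99.3% of the negative controls. Ahsg, Serpina1b and Serpina1a lay above 55.5%, 64.3% and 66.9% of them, so these 3 were little clear of background.
With the hepatocyte and mitosis scores 2 relations passed by r and 6 by rho. As for the pairs, values on the 6 arrays with bright controls are without removal of arm means. Sesn1 was lower in tumours with more hepatocyte lineage signal, with r = -0.76 and rho = -0.73 (permutation p = 0.00047 and 0.00108, adjusted 0.0127 and 0.0146). The r was -0.63 without the 2 mice farthest from the Sesn1 median, -0.86 on the 15 arrays and -0.71 on the 6 with bright controls. Removing any 1 mouse left it between -0.83 and -0.70, and it missed the threshold without anti-PD1 mouse 2 (adjusted permutation p = 0.0648) or placebo mouse 2 (0.0585). Btg2 had r = -0.54 and rho = -0.56 with the same score (permutation p = 0.00762 and 0.0104, adjusted 0.0520 and 0.0470), with -0.56 without the 2 farthest mice, -0.58 on the 15 and 0.11 on the 6.
The hepatocyte score averaged -0.22 ± 0.78 in the combination, -0.01 ± 1.08 with anti-PD1, 0.74 ± 0.21 with lenvatinib (SD, n = 5 each) and -0.42 ± 1.01 with placebo (SD, n = 6). Its arm mean was thus highest with lenvatinib, the arm in which the Sesn1 mean was lowest. The part of the hepatocyte signal in the Sesn1 difference between the combination and lenvatinib was not tested.
Eda2r was higher in tumours with a higher mitosis score, with r = 0.67 and rho = 0.69 (permutation p = 0.00206 and 0.00108, adjusted 0.0278 and 0.0146). The r was 0.66 without the 2 farthest mice and 0.87 on the 15 arrays. On the 6 it was -0.38, but arm means were not removed there, so the opposite signs are not from like measures. With arm means and the hybridization signal removed it was 0.61 and did not pass (adjusted permutation p = 0.0711). Leaving out any 1 of anti-PD1 mice 2 and 5, lenvatinib mice 1 and 3 and placebo mice 2, 4 and 5 took the adjusted permutation p to between 0.0510 and 0.0730, with r between 0.60 and 0.67. Cdkn1a had r = 0.63 and rho = 0.71 with the same score (permutation p = 0.0100 and 0.00405, adjusted 0.0520 and 0.0365), with 0.52 without the 2 farthest mice, 0.76 on the 15 and 0.74 on the 6.
The following relations were named after their values were seen. Eda2r with the hepatocyte score had r = 0.52 and rho = 0.52 (permutation p = 0.0186 and 0.0179, adjusted 0.0715 and 0.0584), with 0.88 on the 15 arrays and -0.48 on the 6. Sesn1 with the mitosis score had r = -0.59 and rho = -0.63 (permutation p = 0.0116 and 0.00841, adjusted 0.0520 and 0.0454), with -0.75 on the 15 and -0.78 on the 6. Btg2 with the mitosis score had r = -0.53 and rho = -0.56 (permutation p = 0.00788 and 0.00790, adjusted 0.0520 and 0.0454), with -0.52 on the 15 and 0.16 on the 6.
The skeletal muscle score fell into separate clusters, with 5 tumours between 3.27 and 4.80, 2 at 1.27 and 1.33 and 14 between -1.90 and -1.31, so no pooled r is given. The 5 muscle-rich pieces were combination mouse 2, anti-PD1 mouse 2, lenvatinib mouse 4 and placebo mice 1 and 5. Ccng1 in them stood at 9.75, 8.89, 9.19, 9.21 and 9.06 in that order. The 2 highest muscle scores, 4.80 and 4.17, and the 2 highest Ccng1 levels belonged to the same tumours, combination mouse 2 and placebo mouse 1. Anti-PD1 mouse 2 also had the highest Phlda3, at 9.74, and the lowest Cdkn1a of the 15 arrays. With the muscle score as a covariate the Mdm2 difference in lenvatinib-treated against lenvatinib-free mice was 0.52, and that of Ccng1 in anti-PD1 against placebo was -0.30.

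**Figure D4:**
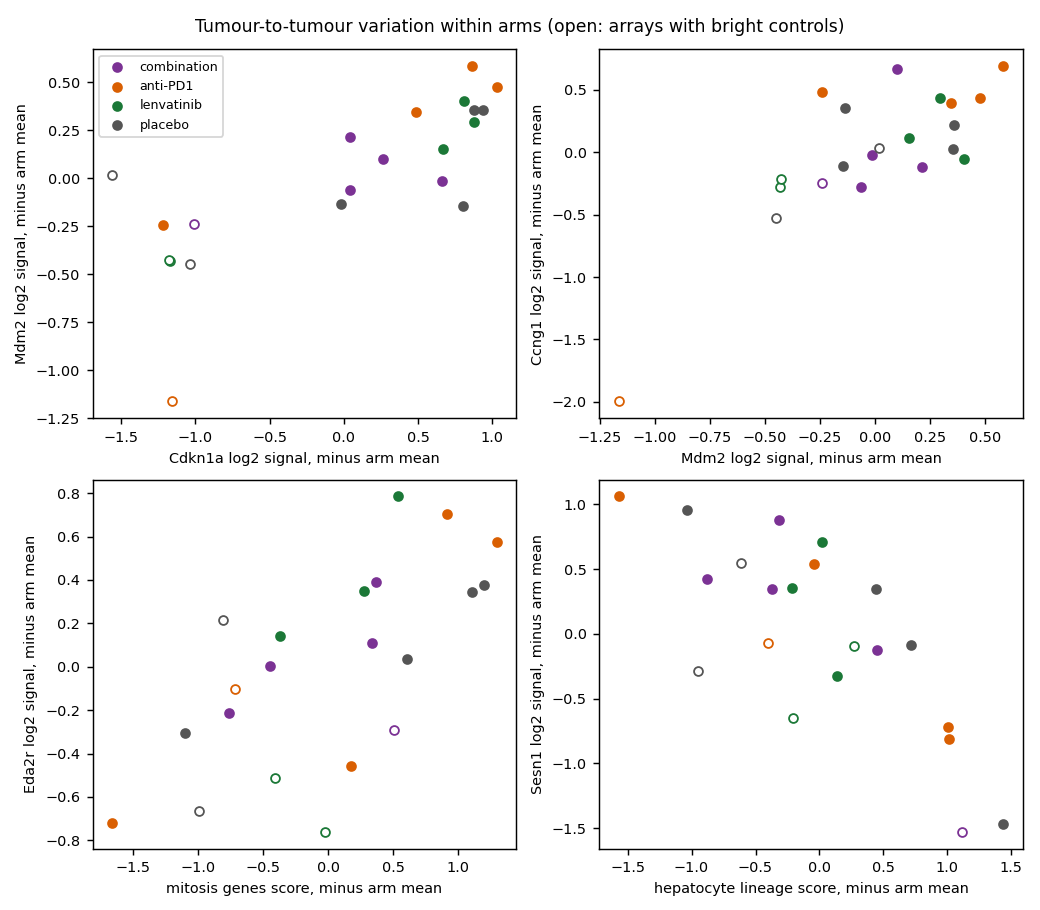
Deviations of single tumours from their arm mean: Mdm2 against Cdkn1a, Ccng1 against Mdm2, Eda2r against the mitosis score and Sesn1 against the hepatocyte lineage score, in log2 units, coloured by arm with open points for the 6 arrays with bright controls. In the plot of Ccng1 against Mdm2, anti-PD1 mouse 1 lies alone at the lower left, and r without it was 0.51.

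The genes whose pattern over the 21 mice was most like that of a member were found among 19496 named genes that are no members, by Pearson r after removal of arm means. For Cdkn1a they were Arf6 at 0.96, Efhd2 at 0.95 and Pgam1 at 0.94, with 0.88, 0.94 and 0.86 on the 15 arrays. For Mdm2 they were Zfp384 at 0.95, Sec24d at 0.94 and Tbk1 at 0.94, with 0.81, 0.87 and 0.88 on the 15. For Eda2r they were Klc3 at 0.89, Shcbp1 at 0.87 and Pter at 0.86, with 0.85, 0.93 and 0.81 on the 15. For the mean of the centred members they were Ccdc186 at 0.95, Keap1 at 0.95 and Nfat5 at 0.95, and these stood at 0.68, 0.68 and 0.58 on the 15 arrays. None of these 12 genes is on the lists of p53 targets or regulators used here. Each r is the highest of many and shares its arrays with the others, so it describes likeness only.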

How the data were processed

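Gene expression was measured in 21 tumours, 1 array per mouse. The deposited values are log2 signals that the authors made with RMA in oligo, per the submitters' processing notes, which name no versions. RMA quantile-normalizes arrays, so levels are relative and a shift shared by most genes is removed. The spread of the tested values still differed between the arrays with bright controls and the others. Mice were placed in arms from their treatment labels, and p-values measure the spread between mice.

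Of 29129 rows, 6923 controls were left out and 22206 probe sets tested, 19572 of them with 1 symbol and 2634 unnamed here. The array annotation's build is not given in the sources used here. limma 3.58.1 in R 4.3.3 was fitted on 4 arm means over 21 arrays, with Benjamini-Hochberg adjustment over all probe sets, two-sided, and a threshold of 0.05. Correlations used 100000 permutations within arms, and 36 pairs in place of 45, since 9 members were measured.

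The members, lists, tests and naming rule were chosen with earlier results of these data known. All members are named with arm means, and per contrast the 3 with the smallest p. Alternatives were dropping probe sets below the 40th percentile of mean signal, trend and robust settings, cyclic loess, array weights, only the compared arms, the mouse number as a block, hybridization signal or muscle score as a covariate, omission of the 6 bright-control arrays or of each mouse, and an adjusted p under 0.1. The bright-control block, the fit within those 6 arrays and the removal of the hybridization signal from correlations were chosen after seeing the data. The precision of each arm mean is limited by having 5 or 6 arrays.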

Additional observations from a re-analysis of the deposited data

Results flagged for a closer look

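Ccng1 was examined with the other members in each arm for single tumours far from the rest, 36 groups in all, and 2 stood out, both of Ccng1. In combination mouse 2 it was 9.75, against 9.06 in the nearest combination tumour. In anti-PD1 mouse 1, an array with bright controls, it was 6.41, against 8.80 in the nearest anti-PD1 tumour. Chance gives such a tumour in about 1 in 20 groups.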

How the results depend on the processing

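The count of members passing was 0 in every contrast and alternative run, except that Btg2 passed in the combination against lenvatinib with array weights (1 member). Signed differences kept their sign apart from the following. Without the 6 arrays with bright controls, Zmat3 in antibody-treated against antibody-free mice was 0.072 and Atm in lenvatinib against anti-PD1 was -0.0021; with array weights these were 0.087 and -0.0012. Within those 6 arrays, where arms hold 1 or 2 mice and lone mice are assumed to vary like the rest, Trp53inp1 in lenvatinib against placebo was -0.055, and Btg2 and Cdc25c in the combination against placebo were -0.22 and 0.35. There, Btg2 and Sesn1 were -0.40 and -0.25 in the combination against lenvatinib and -0.51 and -0.17 in antibody-treated against antibody-free mice. Phlda3 and Cdc25c were 0.16 and 0.29 in the combination against anti-PD1, and Phlda3 was 0.28 in lenvatinib against anti-PD1. Leaving out 1 mouse at a time gave -0.61 to 0.062 for Ccng1 in anti-PD1 against placebo (0.062 without anti-PD1 mouse 1). It gave -0.017 to 0.88 for Trp53inp1 in lenvatinib against anti-PD1, and -0.22 to 0.0018 for Zmat3 in antibody-treated against antibody-free mice. The causes were not tested. Of the other genes named, some passed in an alternative only. With array weights these were Ddb2 and Cdc25c in the combination against lenvatinib (0.65 and -0.93), Mcl1 in the combination against anti-PD1 (0.64), and Pltp, Cdc25c and Mcl1 in the interaction (2.34, -1.07 and 0.75). Cyfip2 passed in the combination against anti-PD1 with the hybridization covariate (2.01), and Mcl1 passed in that contrast without combination mouse 1 (0.77). Within the 6 arrays Ube2c passed in lenvatinib against placebo (3.34) and in all lenvatinib-treated against all lenvatinib-free mice (2.18). Relations that passed by r in an alternative only were Cdkn1a with Eda2r, Btg2 and the mitosis score, and Btg2 with Eda2r and the hepatocyte score (adjusted permutation p of 0.0164 to 0.0496). Pairs of members that passed numbered 2; they were 6 as deposited and 6 with cyclic loess. They were 0 without the 6 arrays, 0 within them and 0 with the hybridization signal removed. The causes were not tested. With 1 mouse left out they were 0 (without anti-PD1 mouse 5) to 5 (without combination mouse 1). Correlations within the 6 arrays were taken without removal of arm means. There r was 0.11 for Btg2 with the hepatocyte score and 0.25 for Cdkn1a with Btg2. It was -0.70 for Cdkn1a with Eda2r and -0.38 for Eda2r with the mitosis score. Probe sets passing, 0 in each contrast, were with array weights 707 in the combination against lenvatinib, 504 in the combination against anti-PD1, 1691 in the interaction and 142 over the 4 arms. In the combination against anti-PD1 they were 31 with the hybridization covariate, 233 without the 6 arrays and 51 within them. Without combination mouse 1 they were 338 there and 320 in the interaction. Within the 6 arrays they were also 831, 427, 30 and 1064 in lenvatinib against placebo, the combination against placebo, lenvatinib against anti-PD1 and all lenvatinib-treated mice, and 529 over the 4 arms. With the mouse number as a replicate block, Mdm2 in lenvatinib-treated against lenvatinib-free mice was 0.52 (adjusted p = 0.921 in limma) and no member passed. The labels do not say whether same-numbered mice shared more than a number. Their deviations correlated from -0.63 to 0.56, over 0.1 in 15 of 30 pairs. Mouse 1 of the combination, anti-PD1 and lenvatinib arms each had bright controls, so the number was not independent of that split. Eda2r, Zmat3 and Trp53inp1 were the members closest in signal to the negative controls.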
